A study of Mus musculus with 39 samples.

Results

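Immediate early genes are transcribed within minutes of a stimulus without new protein synthesis, through kinase cascades that activate serum response and CREB-type factors already bound at their promoters. Their products are mostly short-lived transcription factors, and the same genes are known to be switched on in microglia, the resident macrophages of the brain, while tissue is dissociated with warm enzymes. The set described here comprises 10 such genes: Fos, Fosb, Jun, Junb and Atf3, whose proteins form or join AP-1 dimers; Egr1 and Egr2, zinc finger factors; Nr4a1, an orphan nuclear receptor; Ier2, an immediate early protein of the nucleus; and Dusp1, a phosphatase that switches off MAP kinases. The members were chosen by symbol, and all 10 were found among the 55487 gene identifiers of the deposited table and were among the 13420 genes tested.

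RNA was measured in striatal microglia of male mice aged 8 to 10 weeks, collected 18 h after an intraperitoneal injection of LPS (lipopolysaccharide, a bacterial cell wall component) at 4500 EU per g or of saline. Each mouse belonged to 1 of 4 arms, written as prenatal group and second treatment: CON:CON, MIA:CON, CON:PLX and MIA:PLX, where MIA stands for maternal immune activation, CON for control, and PLX for a treatment that the labels do not spell out. The LPS groups held 4 libraries in CON:CON and 6 in each of the other arms, against 4 saline libraries in CON:CON, MIA:CON and CON:PLX and 3 in MIA:PLX, 37 libraries in all. The strain and the agent given to the mothers were not stated in the labels, and no label says that replicates were separate animals, so that p-values measure the spread between these libraries, which may be technical. All tissue was digested for 30 min at 37 °C in an enzyme mix of papain and DNase before live CD11b+, CD45-low, P2RY12+ cells were sorted, so every group carried the same dissociation and no undissociated control was analysed here. The RNA was amplified without strand information.

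Libraries held between 1510006 and 5746240 counts, with a median of 3095170. Mitochondrial ribosomal RNA took between 6.14% and 19.3% of them. P2ry12, the receptor used for the sort, checks the injection labels here because it fell with LPS: it had 141 to 419 CPM in 21 of the 22 LPS libraries and 2370 to 3070 CPM in the 15 saline libraries, where CPM is the count scaled to a common library total. The exception was the library labelled MIA:CON LPS replicate 6, with 1820 CPM. That library differed from an excluded saline library, MIA:PLX saline replicate 1, by little: the chi-square over 11605 genes was 1.53 times its degrees of freedom. No other of the 741 pairs of libraries was that close, and the same library had a value of at least 8.94 with every other one. Its values stay in the CPM ranges of MIA:CON, and the log2 changes of that arm are also given without it. Summed over 8 markers, microglial genes reached 6270 to 14600 CPM in LPS libraries and 17300 to 19400 CPM in saline libraries. The sums of 6 monocyte markers were 9.79 to 564 CPM in LPS libraries and 2.74 to 19 CPM in saline libraries, and those of 6 neutrophil markers 3.32 to 124 CPM and 0 to 74.1 CPM; in bulk RNA fewer cells of a type and less RNA per cell cannot be told apart. The monocyte sum rested mainly on Fn1, with a median of 109 CPM in LPS libraries and 1.34 CPM in saline libraries. Ccr2 went the other way, with medians of 1.55 CPM after LPS and 6.87 CPM after saline. Medians of Ly6c2, Plac8, Chil3 and S100a6 were 0.816, 1.44, 2.9 and 1.37 CPM after LPS and 0 CPM after saline. At least 1 library of each LPS group had each of the 6 monocyte markers, while Ly6c2 was at 0 in every saline group but CON:PLX. The part of these marker shifts in the results was not tested.

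Promoter sequence is shown for some of the members. Any link between it and the joint movement of the members between libraries, described further on, was not tested. RefSeq windows on GRCm38.p6, covering the 250 bases before an annotated start, were read for 8 of the 10 members. No window was found for Ier2, and Egr1 was not read. The motif counts of members below cover these 8 alone and say nothing of Egr1 or Ier2. Capitals mark matches on either strand to TATAAA (the TATA box), TGACG (a part of the CRE, the site of CREB-type factors), the whole CRE TGACGTCA, which contains TGACG, the EGR motif GCGNGGGCG, and the CArG box of serum response factor. Fos lies on the plus strand and its window is chr12:85473640-85473889; Egr2 is on the plus strand, and the third of its 5 windows, chr10:67537619-67537868, is shown; Nr4a1 is on the plus strand, at chr15:101266596-101266845; Dusp1 is on the minus strand, at chr17:26508473-26508722.
Fos: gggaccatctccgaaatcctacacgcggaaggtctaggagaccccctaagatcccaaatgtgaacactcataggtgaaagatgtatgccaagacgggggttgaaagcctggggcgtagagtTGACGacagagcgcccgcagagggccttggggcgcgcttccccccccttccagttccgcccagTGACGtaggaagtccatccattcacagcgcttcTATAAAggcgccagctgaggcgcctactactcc
Egr2: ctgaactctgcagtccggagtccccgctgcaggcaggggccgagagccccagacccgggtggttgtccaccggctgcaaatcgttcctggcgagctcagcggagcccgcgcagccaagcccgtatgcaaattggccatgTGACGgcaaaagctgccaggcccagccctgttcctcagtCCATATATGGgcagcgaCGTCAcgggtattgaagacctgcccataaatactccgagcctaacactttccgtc
Nr4a1: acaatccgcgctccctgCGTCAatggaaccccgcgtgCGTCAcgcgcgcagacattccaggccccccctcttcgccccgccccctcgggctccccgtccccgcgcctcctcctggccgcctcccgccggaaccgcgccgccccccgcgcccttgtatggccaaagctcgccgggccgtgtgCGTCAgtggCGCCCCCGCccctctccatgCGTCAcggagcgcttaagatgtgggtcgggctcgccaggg
Dusp1: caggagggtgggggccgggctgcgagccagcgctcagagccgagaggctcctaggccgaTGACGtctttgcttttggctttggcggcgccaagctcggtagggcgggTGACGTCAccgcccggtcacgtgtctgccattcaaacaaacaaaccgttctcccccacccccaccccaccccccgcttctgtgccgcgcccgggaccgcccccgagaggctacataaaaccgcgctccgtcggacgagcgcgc
TGACG was found in 7 of the 8 members read, all but Jun, and in 19.8% of 27025 genes with windows. TATAAA was found in Fos alone, against 14.3% of all genes, and the whole CRE in Dusp1 alone, against 1.77%. Among the 8 members read, the EGR motif was found in Fosb and Nr4a1, against 5.33% of all genes, and the CArG box in Egr2 alone, against 1.62%. TGANTCA, the AP-1 motif, was found in none of the 8 members and in 7.82% of all genes. These are matches of letters, not sites of binding.

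Per kilobase of exon, Dusp1 and Egr1 stood at the top of the set in LPS libraries. Median levels in LPS libraries were 481 CPM per kb for Dusp1, 452 for Egr1, 188 for Jun, 182 for Fos, 80 for Atf3, 63.3 for Ier2, 61.9 for Junb, 18.5 for Nr4a1, 12.3 for Fosb and 10.9 for Egr2. In saline libraries Egr1 was at the top with 463 CPM per kb, followed by Jun with 273, Dusp1 with 124, Fos with 120, Atf3 with 62.8, Junb with 59.8, Ier2 with 33.6, Fosb with 20.6, Egr2 with 20.4 and Nr4a1 with 12.9. Most neighbours in these orders had ranges that overlapped: Dusp1 spanned 166 to 860 CPM per kb and Egr1 99.6 to 906 in LPS libraries. In GENCODE M21 (GRCm38) the members called after LPS are protein-coding: Dusp1 spans chr17:26505590-26562128 on the minus strand, Ier2 spans chr8:84661331-84662852 on the minus strand in 1 exon, and Nr4a1 spans chr15:101254269-101274795 on the plus strand. Exons of Jun share 232 bases with the antisense gene Junos, exons of Junb share 173 with Prdx2 and exons of Dusp1 share 11 with Ergic1, and without strand information reads of such stretches cannot be assigned.

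**Figure D1:**
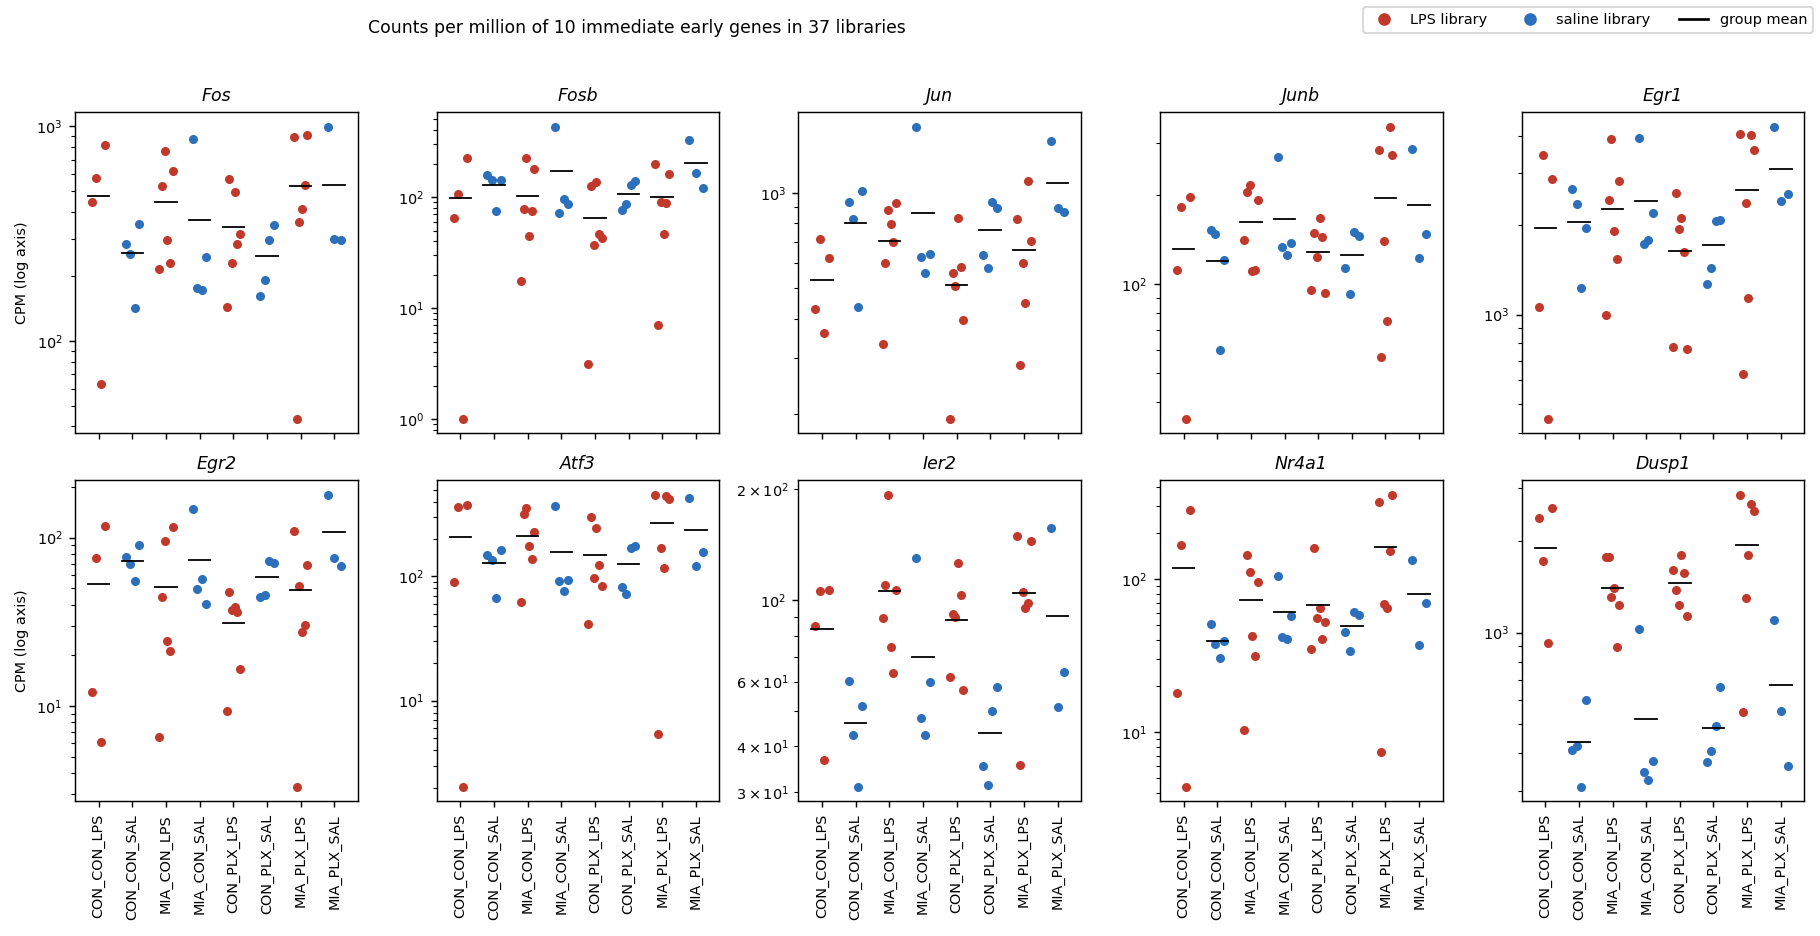
CPM (log axis) of each gene in the 37 libraries, by group, with LPS libraries in red left of the saline libraries of the same arm in blue; black lines are group means. Dusp1 separates the injections in CON:CON and CON:PLX, while for Fosb and Atf3 single LPS libraries lie far under their groups.

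Dusp1 was the one member that was higher after LPS in each of the 4 arms. At 18 h after the injection Ier2 also rose in CON:PLX, and Ier2 and Nr4a1 rose in the mean over the 4 arms; no member fell in any of these comparisons. Calls were made at an adjusted p under 0.05 in edgeR's quasi-likelihood test across all genes. In CON:CON 1 of 10 members was called, as higher, beside 23.6% of all genes tested (13.7% higher, 9.84% lower), and in MIA:CON 1, as higher, beside 25.4% (14.5% higher, 10.9% lower). In CON:PLX 2 were called, both higher, beside 31.5% (17.5% higher, 14% lower), and in MIA:PLX 1, as higher, beside 22.3% (11.8% higher, 10.4% lower). In the mean over the 4 arms 3 members were called, all higher, beside 56.4% of all genes tested (30.3% higher, 26% lower). The share of members called higher was thus close to the background in every comparison. The median log2 change over the 10 members was 0.69 in CON:CON, 0.31 in MIA:CON, 0.41 in CON:PLX and 0.26 in MIA:PLX, against 0.06, 0.03, 0.03 and 0.04 over all genes tested. In the mean over arms it was 0.46, against 0.03.

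Dusp1 dephosphorylates p38, JNK and ERK kinases, which lie upstream of the other members. In CON:CON it had 2393, 1720, 926 and 2567 CPM after LPS, against 411, 423, 310 and 598 CPM after saline. In CON:PLX its lowest, median and highest values after LPS were 1138, 1478 and 1802 CPM, against 373, 408, 491 and 660 CPM after saline. The LPS and saline libraries did not overlap in these arms. In MIA:CON the LPS libraries reached 899, 1358 and 1779 CPM (lowest, median, highest), against 1028, 348, 328 and 378 CPM after saline. In MIA:PLX they reached 549, 2157 and 2846 CPM, against 1098, 552 and 362 CPM after saline. The groups overlapped in both MIA arms: 1 saline library of MIA:CON lay above the lowest LPS library, and 2 saline libraries did so in MIA:PLX. The log2 change of Dusp1 was 2.32 ± 0.465 (SE, adjusted p = 0.000395, edgeR) in CON:CON, 1.63 ± 0.429 (adjusted p = 0.00534) in MIA:CON, 1.84 ± 0.433 (adjusted p = 0.00128) in CON:PLX and 1.75 ± 0.483 (adjusted p = 0.00802) in MIA:PLX. Without the library labelled MIA:CON LPS replicate 6 the change in MIA:CON was 1.70 (adjusted p = 0.00418, edgeR). The call in MIA:PLX was lost without saline replicate 3 (1.60, adjusted p = 0.0567) or saline replicate 4 (1.43, adjusted p = 0.0764). Over the 4 arms Dusp1 was 3.70-fold higher, a log2 change of 1.89 ± 0.228 (adjusted p = 1.41e-08, edgeR). The number of arms in which all LPS libraries lay above all saline libraries was 2 for Dusp1. No other member was without overlap, in either direction, in any arm. Of all genes tested, 22.3% did not overlap, in either direction, in CON:CON, 18.4% in MIA:CON, 29.2% in CON:PLX and 24.1% in MIA:PLX. The share of members without overlap was thus under that of all genes in every arm.

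Ier2 is a nuclear protein of the early growth response. In CON:PLX it had 56.8, 90.6 and 126 CPM after LPS (lowest, median, highest), against 35.5, 31.4, 49.8 and 57.9 CPM after saline, so that a single pair of libraries crossed. The log2 change there was 1.27 ± 0.433 (adjusted p = 0.0234, edgeR), and it lost the call without CON:PLX saline replicate 1 (1.18, adjusted p = 0.0698) or saline replicate 2 (1.14, adjusted p = 0.0767). In CON:CON the LPS libraries had 84.9, 106, 36.9 and 107 CPM, against 60.1, 42.8, 31.1 and 51.5 CPM after saline. The LPS library at 36.9 CPM was the one that overlapped, and without it the change in CON:CON was 1.35 (adjusted p = 0.0289, edgeR), against 1.06 (adjusted p = 0.0935) with it. In MIA:CON the LPS values were 63.4, 97.7 and 193 CPM, against 130, 47.9, 43 and 59.7 CPM after saline. In MIA:PLX they were 35.7, 101.5 and 149 CPM, against 157, 51.1 and 63.8 CPM after saline, with the highest single value in a saline library. Over the 4 arms Ier2 was higher by 0.88 ± 0.223 on the log2 scale (adjusted p = 0.00116, edgeR).

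Nr4a1, a receptor with no known natural ligand that is induced by many stimuli, ranged most widely among the genes called. In CON:CON it had 18.1, 167, 4.4 and 286 CPM after LPS, against 51, 37.6, 30.7 and 39.5 CPM after saline. The LPS libraries lay on both sides of the saline libraries. The lowest, median and highest LPS values were 10.3, 68.85 and 145 CPM in MIA:CON, against 104, 42, 40.9 and 57.6 CPM after saline. In CON:PLX they were 35.2, 54.2 and 160 CPM, against 45.2, 34, 61.5 and 58.6 CPM after saline. These ranges enclosed most saline values. In MIA:PLX they were 7.47, 111 and 358 CPM, against 134, 37.1 and 70.1 CPM after saline. Every arm overlapped. The change over the 4 arms, 1.10 ± 0.449 on the log2 scale (adjusted p = 0.0386, edgeR), lost its call when any 1 of 15 of the 37 libraries was left out, with a largest adjusted p of 0.101 without CON:CON LPS replicate 5. It was also lost without a filter on low counts (adjusted p = 0.079, edgeR) and with limma voom with quality weights (adjusted p = 0.0868).

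The AP-1 subunits did not pass the test in any arm. Fos, the partner of Jun proteins in the classical dimer, had 444, 576, 62.9 and 818 CPM after LPS in CON:CON, against 283, 256, 143 and 352 CPM after saline. The LPS libraries lay above all saline libraries except 1, which lay under them all. The log2 change was 1.15 ± 0.723 (adjusted p = 0.264, edgeR), and over the 4 arms it was 0.62 ± 0.347 (adjusted p = 0.127). Atf3, a stress-induced factor that pairs with Jun proteins, had 89.8, 365, 2.03 and 375 CPM after LPS in CON:CON, against 148, 135, 66.5 and 163 CPM after saline. Of these LPS libraries, 2 lay above the saline range, 1 within it and 1 far under it. Junb, a Jun protein, had a median of 142.5 CPM in the 22 LPS libraries (35.2 to 341) and of 137.5 CPM in the 15 saline libraries (59.7 to 285). Over the 4 arms the log2 values were 0.65 ± 0.454 for Atf3 (adjusted p = 0.226, edgeR) and 0.29 ± 0.25 for Junb (adjusted p = 0.335).

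Fosb, Jun and Egr2 had negative log2 values in all 4 arms, and none passed the test. Fosb, which like Fos needs a Jun partner, had 64.5, 106, 1.01 and 224 CPM after LPS in CON:CON, against 157, 141, 74.4 and 143 CPM after saline; the value of 1.01 CPM rests on 3 reads. Jun had a median of 599 CPM in LPS libraries (194 to 1086) and of 870 CPM in saline libraries (436 to 1617). Egr2 had a median of 36.9 CPM in LPS libraries (3.32 to 117) and of 69.3 CPM in saline libraries (40.6 to 180). All 3 ranges overlapped widely between the injections. The log2 values over the 4 arms were -0.48 ± 0.444 for Fosb (adjusted p = 0.363, edgeR), -0.33 ± 0.206 for Jun (adjusted p = 0.178) and -0.52 ± 0.378 for Egr2 (adjusted p = 0.246). Their signs turned in CON:CON (Fosb and Egr2) or MIA:CON (all 3) when the libraries at the extremes of their groups were left out. Egr1, an early growth response factor, had 1062, 3450, 447 and 2855 CPM after LPS in CON:CON, against 2644, 2363, 1230 and 1963 CPM after saline. Its LPS libraries straddled the saline libraries, and the log2 value over the 4 arms was 0.13 ± 0.281 (adjusted p = 0.706, edgeR; 95% interval -0.44 to 0.71).

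Without the library labelled MIA:CON LPS replicate 6, 1 member (Dusp1) was still called in MIA:CON and 3 in the mean over arms. The log2 values in MIA:CON were then 0.81 for Ier2 (0.78 with it), 0.44 for Nr4a1 (0.48 with it), 0.38 for Fos (0.45 with it) and 0.65 for Atf3 (0.63 with it). They were 0.16 for Junb (0.17 with it), -0.16 for Jun (-0.11 with it) and 0.08 for Egr1 (0.11 with it). Those of Egr2 and Fosb moved most, to -0.71 (-0.37 with it) and -0.77 (-0.58 with it), and neither passed the test in either fit.

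**Figure D2:**
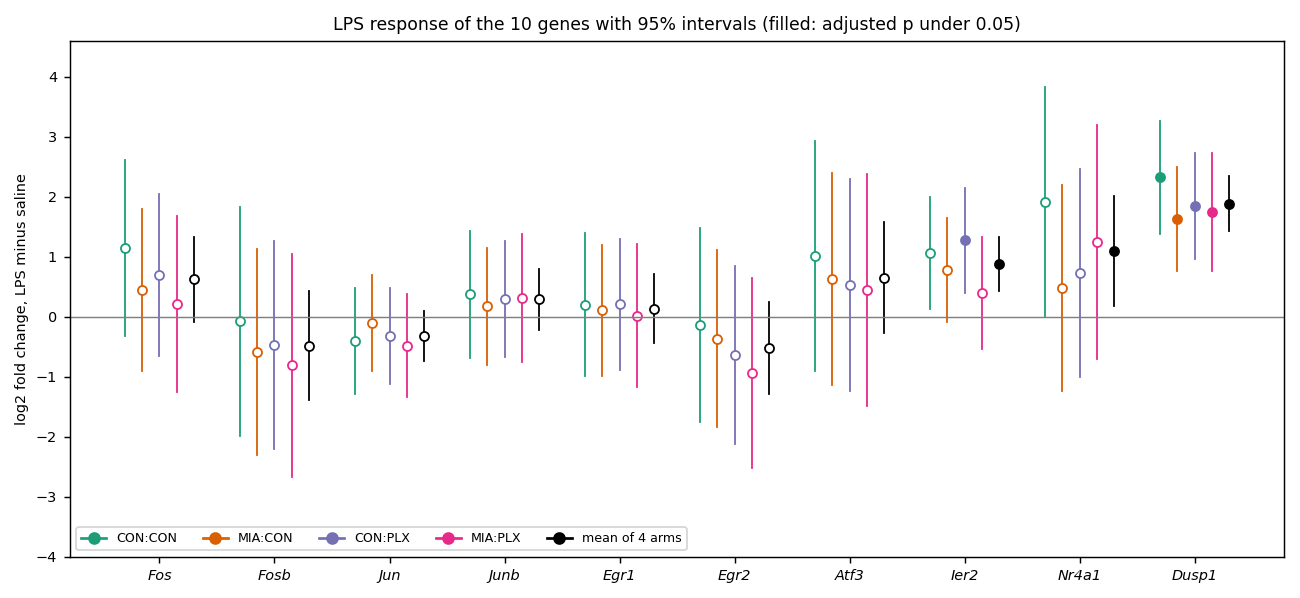
Log2 fold change, LPS minus saline, of each gene in each arm and in the mean over the 4 arms (edgeR, 95% intervals as vertical lines); filled points have an adjusted p under 0.05. Dusp1 is filled in every arm, Ier2 in CON:PLX and in the mean, Nr4a1 in the mean alone.

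Maternal immune activation and PLX gave no member called in any comparison. Within saline or LPS, MIA was set against CON in 4 comparisons and PLX against no PLX in 4, with 4 interactions with LPS beside them. Each had 0 members called by edgeR, beside 0% of all genes tested, except MIA minus CON with LPS and PLX (0.0149%) and PLX minus none with LPS in CON (0.00745%). At an unadjusted p under 0.05 the count was 1 member over all 12 comparisons, where each comparison had between 125 and 1252 of all 13420 genes, and DESeq2 and limma voom each called 0. That 1 was Ier2 in saline libraries with PLX, with 157, 51.1 and 63.8 CPM in MIA, against 35.5, 31.4, 49.8 and 57.9 CPM in CON. The difference was 1.15 ± 0.49 on the log2 scale (adjusted p = 1, edgeR), and it included the highest Ier2 value of the saline libraries.

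All 10 members had positive log2 values for MIA minus CON in saline libraries, with and without PLX. Without PLX the values ran between 0.11 (Egr2) and 0.70 (Nr4a1), with a median of 0.45, against 0.004 over all genes tested. With PLX they ran between 0.57 (Dusp1) and 1.19 (Fos), with a median of 0.95, against -0.007 over all genes. In each of these MIA groups 1 library was the highest for 10 of 10 members: MIA:CON saline replicate 1 and MIA:PLX saline replicate 2. Without both, 3 of 10 values were positive and the median was -0.30 without PLX, and 9 of 10 were positive and the median was 0.29 with PLX. Both were picked for the members' own high values, which by itself moves MIA minus CON downwards, so these values are a description only. PLX minus no PLX had a median of -0.07 in CON and 0.37 in MIA with saline, and of -0.42 in CON and 0.28 in MIA with LPS. In LPS libraries the median of MIA minus CON was 0.002 without PLX and 0.68 with PLX. All 10 values were positive there with PLX, as they were for PLX minus no PLX in MIA with saline. The members moved together between libraries, as described further on, so the signs of 10 members are not 10 separate results. The widest interaction value was that of Nr4a1 for MIA by LPS without PLX, -1.44 ± 1.23 (adjusted p = 1, edgeR), whose 95% interval ran between -3.96 and 1.08.

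The spread between libraries of a group was above the median of all genes for each of the 10 members, by a wide margin for some and a narrow one for others. The SD of log2 CPM within groups was 1.66 for Atf3, 1.64 for Fosb, 1.43 for Nr4a1, 1.25 for Egr2, 1.09 for Fos, 0.82 for Egr1, 0.705 for Junb, 0.61 for Ier2, 0.599 for Dusp1 and 0.59 for Jun. The median over members was 0.953, against 0.506 over all genes tested and 0.364 over genes with an average log2 CPM of at least 4, a level all members exceed. The dispersion of a gene relative to the trend at its level, a measure that takes abundance into account, was 2.36 (Jun) to 11.3 (Fosb), with a median of 5.08 against 0.772 over all genes. Each member lay above at least 92.7% of the genes tested in this measure. By the SD itself, which does not take abundance into account, Atf3 and Fosb lay above 99.8% of genes, but Jun above 62.2%, Dusp1 above 63.3% and Ier2 above 64.7%.

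**Figure D3:**
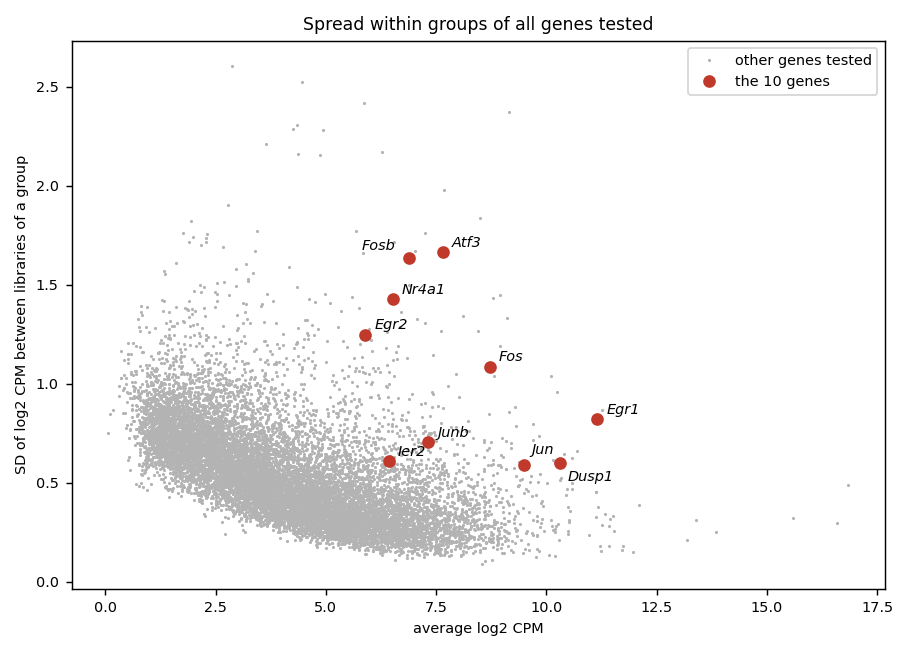
SD of log2 CPM between libraries of a group (vertical axis) against average log2 CPM (horizontal axis) for all genes tested, 1 point per gene, with the 10 members in red. The members run between 0.59 (Jun) and 1.66 (Atf3), all above the median of 0.364 over genes with an average log2 CPM of at least 4.

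The spread was larger in LPS groups than in saline groups for 9 of 10 members, a share near that of all genes, given next. Dusp1, the exception, had an SD of 0.598 in LPS groups and 0.601 in saline groups. Ier2 had 0.615 and 0.601, so both were near ties. The median SD was 1.1 in LPS groups and 0.598 in saline groups over the members, and 0.581 in LPS groups and 0.287 in saline groups over all genes tested, of which 93.9% had the larger SD in LPS groups. Without the pair of low LPS libraries described next, 7 of 10 members had the larger SD in LPS groups, with medians of 0.727 in LPS groups and 0.598 in saline groups, and so did 92.4% of all genes, with medians of 0.56 in LPS groups and 0.287 in saline groups. Without both high saline libraries, described there too, 10 of 10 members did, with medians of 1.1 in LPS groups and 0.379 in saline groups, and 93.9% of all genes.

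In 5 libraries all 10 members were at the same extreme of their group. The share of all genes at an extreme in these libraries is not given, so these counts have no background. The groups were small, with 3 libraries in MIA:PLX saline, and the members moved together, as described further on. The 10 members are thus not 10 separate results. CON:CON LPS replicate 4 was the lowest of its group for 10 of 10 members, and so was MIA:PLX LPS replicate 2. Atf3 had 2.03 CPM in that CON:CON library, 180-fold under the median of the other LPS libraries of the group, and 5.39 CPM in the MIA:PLX library, 78.3-fold under. Jun was closest to its group in both, 1.73-fold and 2.46-fold under the median of the others. Ier2 was 2.87-fold and 2.94-fold under, and Dusp1 2.58-fold and 4.58-fold under. Mitochondrial ribosomal RNA was 6.14% and 9.16% of counts in these libraries, the lowest values of the 37. Tnf, an inflammatory cytokine gene, had 44.6 and 49.8 CPM in them, against 587 to 1280 and 368 to 1640 CPM in the other libraries of their groups and 46.5 to 105 CPM in all saline libraries. Their P2ry12 of 326 and 419 CPM was at the level of LPS libraries. Their monocyte marker sums of 58.5 and 173 CPM lay within the range of their groups. The part of these differences in the low values was not tested.

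The other 3 were saline libraries. CON:CON saline replicate 3 was the lowest of its group for 10 of 10 members, with 2.46-fold between the highest and lowest Fos value of that group. MIA:CON saline replicate 1 was the highest for 10 of 10, with Fos at 874 CPM, 4.95-fold over the median of the other saline libraries of its group. MIA:PLX saline replicate 2 was the highest for 10 of 10, with Fos at 998 CPM, 3.36-fold over. Tnf had 89.3 and 98.3 CPM in these high libraries, within the range of saline libraries, and monocyte marker sums were 8.78 and 8.24 CPM. Without both low LPS libraries the count of members called over the 4 arms was 5 (Fos and Atf3 added), and without these and both high saline libraries, a setting chosen after seeing the data, it was 6. These libraries were picked for the members' own extremes, which by itself moves LPS minus saline upwards, so the added calls are a description only.

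**Figure D4:**
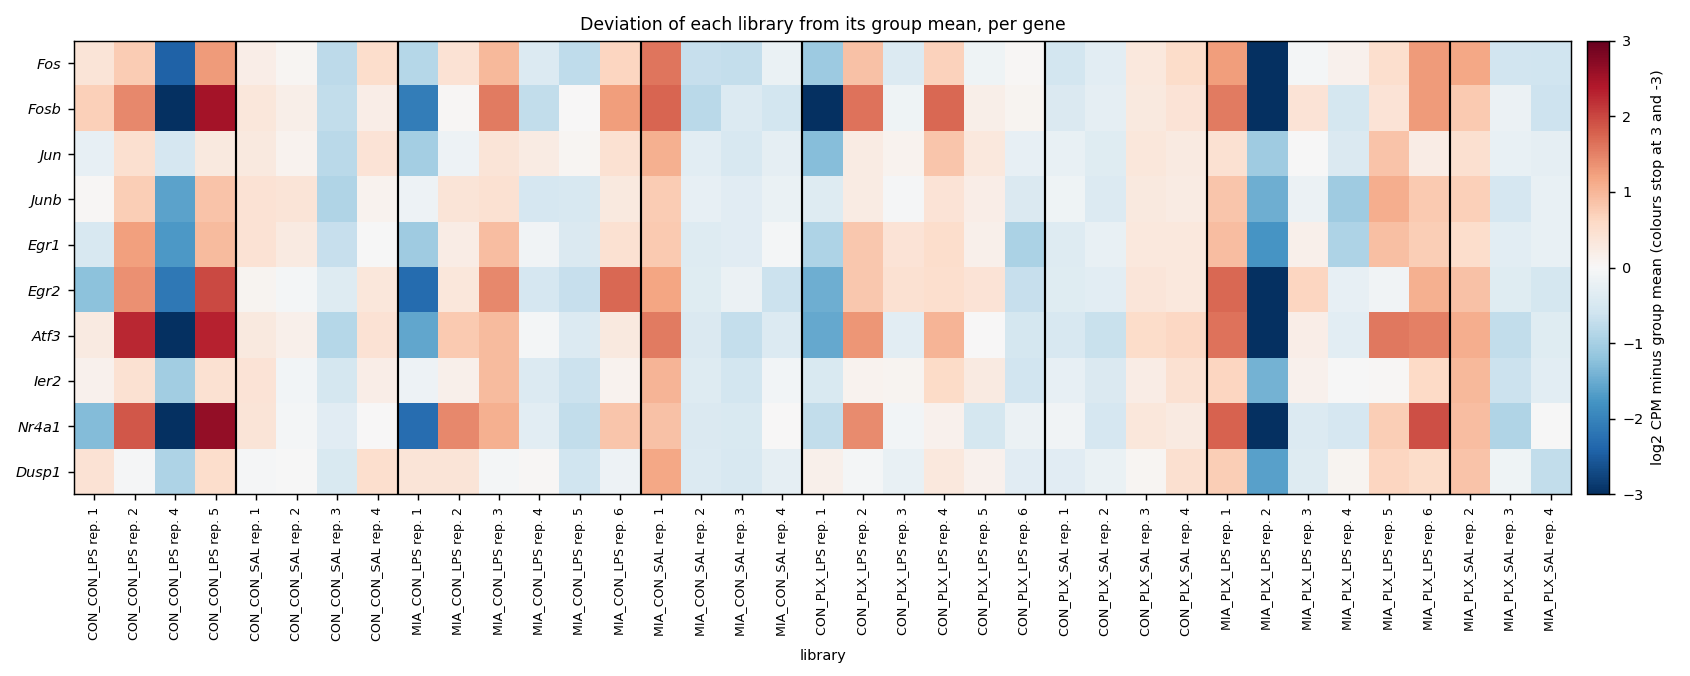
Log2 CPM minus the group mean (colour, red above and blue below, stopped at 3 and -3) for each gene (rows) in each of the 37 libraries (columns, groups divided by black lines). Colours are deepest in CON:CON LPS replicate 4 and MIA:PLX LPS replicate 2, which are the lowest of their groups for 10 of 10 genes.

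The members moved together between libraries of a group. Over the 37 libraries the Pearson r of the deviations from the group mean was between 0.56 and 0.945 for the 45 pairs of members, with a median of 0.828. It was highest for Fos with Atf3 and lowest for Egr2 with Dusp1. Without both low LPS libraries the r values ran between 0.264 and 0.918, with a median of 0.76. All points share each library's scaling and its few groups, and no p is given. The mean of all members contains each member itself, which by itself raises the r of a member with it. With that mean, r was 0.974 for Atf3, 0.969 for Fos, 0.95 for Egr1, 0.937 for Fosb and 0.931 for Nr4a1. It was 0.927 for Egr2, 0.91 for Junb, 0.886 for Ier2, 0.823 for Jun and 0.743 for Dusp1. Over all genes tested, nearly all outside that mean, the median r with it was -0.233, so the values are not on a like footing.

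Among 6326 other genes with an average log2 CPM of at least 4, the 8 with the highest r were Ppp1r15a (0.973), a phosphatase subunit of the stress response, Zfp36 (0.942), an RNA-binding protein that destabilises cytokine mRNA, Ftl1 (0.901), the ferritin light chain, Il1b (0.899), a cytokine, Nfkbid (0.892), a regulator of NF-κB, Cd83 (0.883), an activation marker, Ier5 (0.881) and Csrnp1 (0.881). An r over 0.5 was reached by 4.17% of these genes. By rank correlation 5 of the 8 stayed among the first 8, and without both low LPS libraries 4 did, with a median r of 0.813 against 0.895.

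Ratios between members show where Dusp1 moved apart from others of the set. The ratio of Egr1 to Dusp1 CPM was 0.444 to 2.98 in the 22 LPS libraries and 3.15 to 7.05 in the 15 saline libraries, and that of Jun to Dusp1 was 0.12 to 0.778 in LPS libraries and 1.33 to 2.4 in saline libraries. Neither ratio overlapped between the injections, low and high libraries included, and neither did those of Fosb, Junb and Egr2 to Dusp1. The ratios of Fos, Atf3, Ier2 and Nr4a1 to Dusp1 did overlap: that of Fos was 0.0679 to 0.589 in LPS libraries and 0.434 to 0.908 in saline libraries. The ratio of Fos to Fosb was 3.07 to 62 in LPS libraries and 1.8 to 3.08 in saline libraries, and did not overlap within any of the 4 arms. Of 45 such ratios, 5 did not overlap over all libraries. All 5 have Dusp1, the member called in each arm, as denominator, so they are not separate results. The share of ratios without overlap among other pairs of genes was not computed. The ratios were looked at after the values were seen and are a description, with no test.

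**Figure D5:**
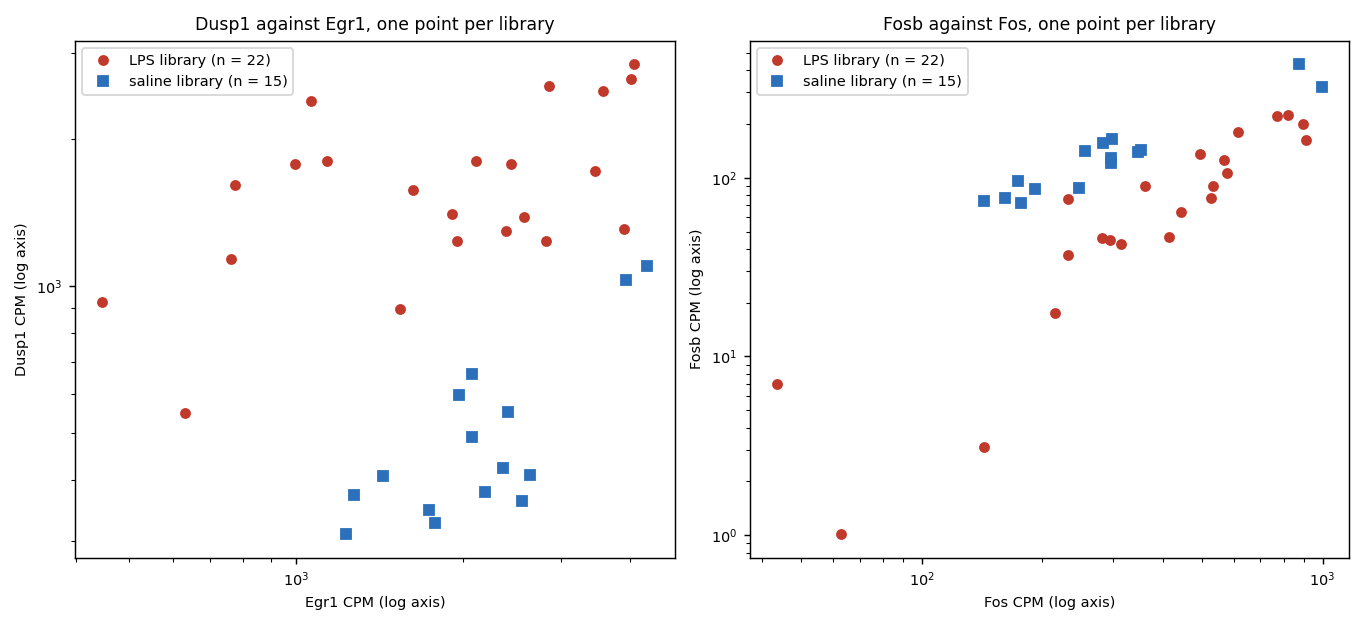
Dusp1 against Egr1 (left) and Fosb against Fos (right) in CPM, both axes logarithmic, 1 point per library, with 22 LPS libraries in red and 15 saline libraries in blue. The ratio of Egr1 to Dusp1 reaches 2.98 at most in LPS libraries and is at least 3.15 in saline libraries.

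Related genes were read from lists chosen with earlier results known. Of other AP-1 family genes, 7 of 9 tested were higher after LPS over the 4 arms and 1 was lower, where 30.3% of all genes tested were higher and 26% lower; these shares are the background of each list count over the 4 arms. Jdp2, a repressor that dimerises with Jun proteins, was higher by 2.33 ± 0.276 (adjusted p = 8.52e-09, edgeR), Batf by 1.82 ± 0.27, Fosl2 by 1.73 ± 0.147 and Maff, a small Maf protein, by 1.55 ± 0.231 on the log2 scale. Jund stood at -0.23 ± 0.245 (adjusted p = 0.435, edgeR), and Fosl1 was not tested. The median log2 change of this list was 1.55, against 0.46 over the members and 0.03 over all genes. Its median r with the members was 0.0364, against -0.233 over all genes tested, and its genes ranged between -0.458 (Batf2) and 0.821 (Jund).

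Of 20 other immediate early genes, 11 were higher and 1 was lower. Ier3 was higher by 1.98 ± 0.226, Klf4 by 1.84 ± 0.2, Myc by 1.499 ± 0.131 (adjusted p = 6.25e-12, edgeR) and Klf6 by 1.26 ± 0.123, while Btg2 was at -0.03 ± 0.202 (adjusted p = 0.92). The median r of this list with the members was 0.702. Of 8 other MAP kinase phosphatases tested, 5 were higher and 2 lower: Dusp2 was higher by 2.62 ± 0.421, Dusp8 by 1.82 ± 0.3 and Dusp16 by 1.59 ± 0.217, Dusp7 fell by 1.38 ± 0.123 (adjusted p = 9.15e-12, edgeR), and Dusp4 was at 0.26 ± 0.302. Dusp1 was thus 1 of several phosphatases of the family that were higher after LPS. Of 13 kinases, factors and corepressors upstream of the members, 2 were higher and 5 lower. Elk3 fell by 1.07 ± 0.165, Creb1 by 0.99 ± 0.173 and Mapk14, the gene of p38α, by 0.74 ± 0.11 (adjusted p = 5.5e-07, edgeR), Nab1, a corepressor of EGR proteins, was higher by 0.86 ± 0.154, and Elk1 was at 0.10 ± 0.167.

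Genes known to rise in microglia during enzymatic dissociation, the members left out, gave 6 higher and 1 lower of 18 tested over the 4 arms, beside 30.3% higher and 26% lower of all genes tested. Without both low LPS libraries 9 were higher and 1 lower, beside 29.9% and 27.1% of all genes. Jund, Rhob, Klf2, Ier5, Zfp36, Hspa1a, Hspa1b and Hsp90aa1 stand in this list and in another of the lists. Ccl3 was higher by 3.18 ± 0.486, Ccl4 by 2.99 ± 0.528, Nfkbiz by 1.74 ± 0.301 (adjusted p = 1.03e-05, edgeR) and Rgs1 by 1.31 ± 0.244 on the log2 scale, and Hist2h2aa1 was at -0.09 ± 0.512. Ccl3 and Ccl4 encode chemokines that LPS is itself known to induce. This list had the highest median r with the members of the 7 lists, 0.801, and its lowest r was 0.174. Of 13 heat shock genes 5 were higher and 1 lower, and without both low LPS libraries 8 were higher and 1 lower, beside the same shares of all genes. Without MIA:CON LPS replicate 6, 7 were higher and 1 lower, beside 30.7% and 26.6% of all genes. Without both high saline libraries 7 were higher and 1 lower too, beside 27.9% and 24.1%. Hsp90aa1 was higher by 0.93 ± 0.205, Hspd1 by 0.92 ± 0.161 (adjusted p = 9.99e-06, edgeR), Hsp90ab1 by 0.60 ± 0.169 and Bag3 by 0.53 ± 0.149, and Hsph1 was at 0.08 ± 0.347; the median r was 0.512. The split of the dissociation list between the digestion and the injection cannot be told apart in libraries that were all digested.

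Of 6 genes raised by glucocorticoids 5 were higher and 0 lower; Dusp1 is known as a target of that hormone too. Klf9 was higher by 4.74 ± 0.371 (adjusted p = 1.97e-12, edgeR), Fkbp5 by 2.45 ± 0.187 and Per1 by 0.94 ± 0.152 on the log2 scale, and Sgk1 was at -0.20 ± 0.145 (adjusted p = 0.233). Zbtb16 had 2.28 to 218 CPM in the 22 LPS libraries and 0 to 1.71 CPM in the 15 saline libraries, of which 7 were at 0. The median r of this list with the members was -0.369, against -0.233 over all genes tested, with a range between -0.49 (Klf9) and 0.212 (Sgk1). The counts for this list were the same without both low LPS libraries, without both high saline libraries and without MIA:CON LPS replicate 6.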

How the data were processed

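RNA of 37 libraries in 8 groups was analysed; 2 further libraries whose titles ask for exclusion were left out. The values are estimated counts, deposited by the authors 1 row per gene; the submitters' processing notes name RSEM, STAR and DESeq2 with no version, and neither build nor annotation is stated in the labels. Of the nonzero values 14.71% were not whole, and all were rounded. Gene names came from GENCODE M21, which matched 55141 of 55487 identifiers; 0.0132% of counts lay in identifiers without a symbol. edgeR 4.0.16 (R 4.3.3) was used with TMM scaling, a filter (minimum count 10, minimum total 15), 1 robust quasi-likelihood fit over all groups and Benjamini-Hochberg adjustment over 13420 genes. Printed CPM use unscaled totals; deviations, SD and r use log2 CPM with a prior count of 2. Alternatives were DESeq2 1.42.0, limma 3.58.1 voom (with quality weights throughout), other scalings, filters and designs, and each library left out. The test was also tested on simulated data. The members and gene lists were chosen with earlier results of these data known. Named list genes are the 4 with the smallest p and the 1 with the largest in each list, and the named genes of like pattern are the 8 with the highest r.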

Additional observations from a re-analysis of the deposited data

Results flagged for a closer look

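By Dixon's ratio of gap to range, a library far from the others of its group was found in 10 of 70 combinations of member and group tested. Chance gives about 1 in 20, but the members move together and 5 of the 10 values come from 1 library, so the combinations are not independent. In MIA:PLX LPS replicate 2 these were Fos (43.6 CPM), Atf3 (5.39 CPM) and Ier2 (35.7 CPM). In MIA:CON saline replicate 1 they were Fosb (432 CPM), Jun (1620 CPM), Junb (269 CPM), Atf3 (369 CPM) and Dusp1 (1030 CPM). Fosb was also far from its group in CON:PLX LPS replicate 1 (3.13 CPM) and in CON:CON saline replicate 3 (74.3 CPM).

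The library labelled CON:CON LPS replicate 3, whose title asks for exclusion and which enters no comparison, lay above every CON:CON saline library for all 10 members. It had 773 CPM of Fos, 330 of Fosb, 1110 of Jun, 279 of Junb, 3610 of Egr1, 127 of Egr2, 363 of Atf3, 83.6 of Ier2, 104 of Nr4a1 and 1540 of Dusp1. Its P2ry12 was 1850 CPM, against 2370 to 3070 CPM in saline libraries. Its Tnf was 75.4 CPM, within the 46.5 to 105 CPM of the saline libraries used. The LPS libraries of its group that were used had 587, 1190, 44.6 and 1280 CPM of Tnf.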

How the results depend on the processing

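Of 600 recomputed log2 changes (50 under 12 settings) 556 kept their direction and side of the threshold, 5 lost a call, 15 gained one and 24 changed sign; none of the sign changes was of a called value. Members called numbered 3 in CON:CON and 5 in the mean over arms without both low LPS libraries, and 4 in CON:CON, 3 in MIA:CON, 2 in MIA:PLX and 6 in the mean without these and both high saline libraries. Settings that leave out the high libraries were chosen after seeing the data. They numbered 2 in MIA:CON without both high saline libraries, 1 in CON:PLX without a filter, and 0 in MIA:PLX with only the compared groups fitted. Leaving out 1 library gave 1 to 2 calls in CON:CON, MIA:CON and CON:PLX, 0 to 1 in MIA:PLX, 2 to 4 in the mean, and 0 to 0 for MIA, PLX and interactions. The median r of the 8 like genes was 0.813 without both low libraries. Sign changes in CON:CON were Fosb at 0.53 with the excluded libraries and 0.34 and 0.34 without the low, or low and high, libraries, and Egr2 at 0.25 in these 3. In MIA:CON without the high, or low and high, libraries Fosb was at 0.48 and 0.47, Jun at 0.44 and 0.43 and Egr2 at 0.26 and 0.26, and Jun was at 0.16 with voom. Without low and high libraries Jun in MIA:PLX was at 0.022 and Fosb in the mean at 0.084. Egr1 in MIA:PLX was at -0.0070 (RLE), -0.019 (no filter), -0.0040 (CPM filter), -0.0034 (compared groups), -0.033 (voom) and -0.0071 (DESeq2). With 1 library left out Egr1 ran -0.27 to 0.56 in CON:CON, -0.014 to 0.37 in CON:PLX, -0.10 to 0.48 in MIA:CON and -0.21 to 0.35 in MIA:PLX; Egr2 -0.97 to 0.25 in CON:CON and -0.71 to 0.26 in MIA:CON; Fosb -0.96 to 0.34 in CON:CON and -0.95 to 0.47 in MIA:CON; Jun -0.27 to 0.43 in MIA:CON; Fos -0.10 to 1.07 in MIA:PLX. The cause was not tested. Replicate numbers do not pair the libraries: 30 of 107 same-number pairs had r over 0.1, the median was 0.032, and 15 of 37 libraries matched their own number best. With the replicate block Egr1 was at -0.084 in CON:CON, -0.050 in MIA:PLX and -0.012 in the mean, and Nr4a1 in the mean at 0.74 (adjusted p = 0.237, edgeR).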

Other observations

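The library labelled MIA:PLX saline replicate 1, whose title asks for exclusion, had 1206 CPM of Dusp1, and the library labelled MIA:CON LPS replicate 6, which it resembles most, had 1236 CPM. P2ry12 was at 1930 and 1820 CPM in them, and Tnf at 208 and 257 CPM.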
